A study of Mus musculus with 474 samples.

Results

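The 9 genes described here, mt-Nd1, mt-Nd2, mt-Nd4, mt-Nd5, mt-Co1, mt-Co2, mt-Co3, mt-Cytb and mt-Atp6, are protein-coding genes of the mouse mitochondrial chromosome. They were chosen by name, as genes whose products sit in the respiratory chain and the ATP synthase, and all 9 were among the 20612 genes of the expression table. The table held 15 genes of the mitochondrial chromosome in all, so that 6 others (the ribosomal RNAs mt-Rnr1 and mt-Rnr2, and mt-Atp8, mt-Nd3, mt-Nd4l and mt-Nd6) were not members. RNA was sequenced from the skeletal muscle (gastrocnemius) of Diversity Outbred mice, 1 library per animal. The Diversity Outbred stock descends from several inbred founder strains, so each animal had its own genotype, and the founder origin of each animal's mitochondrial DNA is not in the files used here. All animals, 49.6% of them female, were adult and were fed the same high-fat, high-sugar diet (45 percent fat), so that no group on another diet was compared. A number in the library titles was taken to be the outbred generation, which the labels do not say outright and the study's methods state for only some of these values. It gave 48, 45, 49, 46 and 47 females and 46, 48, 50, 47 and 48 males of generations 17, 18, 19, 21 and 23. Each library also carried a running number, and the run was divided here into 5 blocks of up to 96 successive numbers, which held 96, 96, 96, 95 and 91 libraries. Apart from 1 missing number in block 4, the numbers break off only between blocks 1 and 2, so the other borders were set by the chosen length of 96, and the labels name no plates or batches.

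Mitochondria keep a small circular genome of their own. It is transcribed from both strands into long transcripts that are cut into separate messenger, ribosomal and transfer RNAs, and most of these messengers receive short poly(A) tails. The proteins they encode form the membrane core of complexes I, III, IV and V, the machinery that passes electrons to oxygen and uses the resulting proton gradient to make ATP, while all other subunits of these complexes, such as those of the nuclear Nduf genes, are made in the cytosol and imported. Skeletal muscle is rich in mitochondria, and more so in its slow, oxidative fibres than in its fast, glycolytic ones.

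Library totals ranged from 35902446 to 165723762 expected counts with a median of 79308916, and TMM factors (the scale factors of edgeR) from 0.871 to 1.29. In 5 libraries the RNA of sex-linked genes went against the labelled sex. Of the markers of the labelled tissue, Myh4, the myosin heavy chain of the fastest fibres, averaged 69383 CPM (the counts-per-million unit) and Myh7, the slow myosin, 1242 CPM. All CPM values here were scaled to TMM-adjusted totals.

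The genes lie on the mitochondrial chromosome of build GRCm38, all on the plus strand. The complex I genes mt-Nd1 (ENSMUSG00000064341, chrM:2751-3707), mt-Nd2 (ENSMUSG00000064345, chrM:3914-4951), mt-Nd4 (ENSMUSG00000064363, chrM:10167-11544) and mt-Nd5 (ENSMUSG00000064367, chrM:11742-13565) encode subunits of its proton-pumping membrane arm. The complex IV genes mt-Co1 (ENSMUSG00000064351, chrM:5328-6872), mt-Co2 (ENSMUSG00000064354, chrM:7013-7696) and mt-Co3 (ENSMUSG00000064358, chrM:8607-9390) encode the core of cytochrome c oxidase. mt-Cytb (ENSMUSG00000064370, chrM:14145-15288) encodes cytochrome b of complex III, and mt-Atp6 (ENSMUSG00000064357, chrM:7927-8607) encodes the a subunit of the ATP synthase, part of its proton channel.

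Several of these genes could not be measured apart from other sequence. The mouse nuclear genome carries a copy of part of the mitochondrial chromosome on chr1:24611535-24616197, minus strand, annotated as 7 unprocessed pseudogenes that were all in the table. Within it, Gm28661 matched mt-Co2 without a substitution but for its last 3 bases, Gm10925 likewise all but the last 3 bases of mt-Atp6, Gm28437 the first 783 bases of mt-Co3 and Gm28439 the first 876 bases of mt-Nd4. Gm29216 matched bases 1063 to 1545 of mt-Co1 with 1 substitution, A1066T, counted from 1 at the start of mt-Co1. Of the 100-base windows of each gene, 99.9% of mt-Co3, 99.5% of mt-Co2, 99.5% of mt-Atp6, 60.8% of mt-Nd4, 30.8% of mt-Co1 and 3.2% of mt-Nd2 also occurred at another place in the annotated transcripts, and none of mt-Nd1, mt-Nd5 or mt-Cytb did. A read of 100 bases from a shared window cannot be told apart from a read of its copy, so the levels of mt-Co2, mt-Co3, mt-Atp6 and, in part, mt-Nd4 and mt-Co1 depend on how the estimation divided such reads.

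The end of mt-Co2 and of its copy are shown because they are the only place where these genes differ, the capitals marking the last 3 bases that the copy lacks (mt-Co2 at chrM:7634-7696, plus strand, and Gm28661 at chr1:24614885-24614944, minus strand).
mt-Co2: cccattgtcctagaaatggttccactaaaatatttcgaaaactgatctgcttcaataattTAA
Gm28661: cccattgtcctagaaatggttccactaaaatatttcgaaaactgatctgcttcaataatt
The start of the stretch that mt-Co1 shares with Gm29216 holds their 1 differing base, in capitals (chrM:6390-6449, plus strand, and chr1:24616129-24616188, minus strand).
mt-Co1: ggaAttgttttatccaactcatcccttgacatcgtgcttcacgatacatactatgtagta
Gm29216: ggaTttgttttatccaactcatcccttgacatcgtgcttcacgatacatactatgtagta
mt-Atp8 and mt-Atp6 overlap by 43 bases on the same strand, in capitals, which is why reads from there belong to both (chrM:7910-7969 and chrM:7927-7986).
mt-Atp8: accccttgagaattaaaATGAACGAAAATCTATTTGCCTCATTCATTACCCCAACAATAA
mt-Atp6: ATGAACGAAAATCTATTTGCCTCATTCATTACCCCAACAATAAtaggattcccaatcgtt
All 6 sequences were read from the GENCODE transcripts of GRCm38. The 3 shorter overlaps touch other members, of 1 base between mt-Atp6 and mt-Co3, of 7 bases between mt-Nd4l and mt-Nd4, and of 14 bases between mt-Nd5 and mt-Nd6, which is transcribed from the other strand.

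Together the 9 genes took 9.60% ± 1.76 of all counts (SD over all libraries), from 6.32% to 18.2% with a median of 9.27%. All 15 mitochondrial genes of the table took 10.6%, the nuclear copy took another 2.72% (1.49% to 5.75%), and both together 13.3%. mt-Co1, which encodes the subunit that holds the oxygen-reducing site of complex IV, supplied 37.8% of the members' counts. mt-Cytb followed with 15.6%, mt-Nd4 with 12.7%, mt-Nd5 with 9.21%, mt-Nd1 with 9.16% and mt-Nd2 with 7.53%. The remaining genes, mt-Co3 (4.32%), mt-Atp6 (2.32%) and mt-Co2 (1.30%), are those whose sequence is almost wholly shared with the copy.

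The share differed among animals more than between their groups. It ran from 6.32% to 15.6% (median 9.0%) in females and from 6.71% to 18.2% (median 9.69%) in males, 2 ranges that overlapped over most of their length, and the means were 9.30% ± 1.71 (SD over all females) and 9.90% ± 1.75 (SD over all males), 0.60 percentage points apart. The male mean was the higher within each of the 5 library blocks, by 0.347, 0.457, 0.852, 0.880 and 0.146 points. The 5 generation means lay between 9.35% and 9.85%, a range of 0.497 points. The 5 library blocks ranged wider, by 1.85 points, from 9.05% ± 1.29 (SD, n = 96) in block 3 to 10.9% ± 2.00 (SD, n = 96) in block 1.

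**Figure D1:**
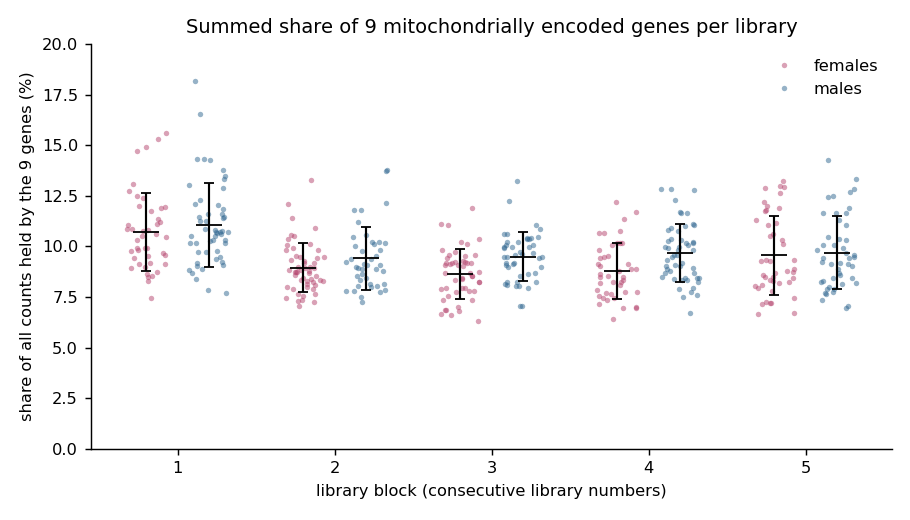
Share of all counts taken by the 9 genes (percent, y axis) in each library, grouped by library block (x axis) and by sex, with group means and SDs. Block 1 has the highest mean, 10.9%, and the 3 libraries with the highest shares, while the ranges of all 5 blocks overlap.

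The 3 libraries with the highest share, a male of generation 19 (DO289) at 18.2%, a male of generation 18 (DO197) at 16.5% and a female of generation 21 (DO326) at 15.6%, were all in block 1. The 3 lowest were females, DO498 of generation 23 at 6.32% and DO339 of generation 21 at 6.59%, both in block 3, and DO261 of generation 19 at 6.42%, in block 4. The share was little related to depth across the libraries (Pearson's r = -0.0714 and Spearman's rho = -0.0364 with the log2 total), although all members share each library's total as their denominator.

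Read per kilobase of gene length, the mean levels fell in the order mt-Co1 (23506 CPM per kb), mt-Cytb (13100), mt-Nd1 (9233), mt-Nd4 (8970), mt-Nd2 (7088), mt-Co3 (5326), mt-Nd5 (4891), mt-Atp6 (3293) and mt-Co2 (1776). The top of this order held in every library, with mt-Co1 above mt-Cytb and mt-Cytb above mt-Nd1 in all of them. Lower down it was less even, with mt-Nd4 above mt-Nd2 in 96.6% of the libraries, mt-Atp6 above mt-Co2 in 96.4%, mt-Nd2 above mt-Co3 in 88.8% and mt-Nd5 above mt-Atp6 in 86.1%. Neighbours that changed place most often were mt-Nd1 over mt-Nd4 (67.7% of libraries, median ratio 1.05) and mt-Co3 over mt-Nd5 (69.8%, median ratio 1.12).

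The low end of the order moved when counts were summed with those of the nuclear copy, an alternative chosen after seeing the data. mt-Atp6 then averaged 15510 CPM per kb, mt-Co3 14541 and mt-Co2 13544, each above mt-Cytb, while mt-Co1 stayed first at 23829 and mt-Nd4 moved only to 9039. By median, mt-Co2 with its copy (12660) lay just below mt-Cytb (12790). Whether the RNA of these pairs came from the mitochondrial or the nuclear sequence cannot be told apart.

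In males, 7 of the 9 genes were higher than in females by edgeR's quasi-likelihood test with Benjamini-Hochberg adjustment over all 18823 genes tested, and none was lower. Of all genes tested, 24.4% were called higher in males and 30.6% lower, 55.0% in either direction. The fitted differences were small, between 4.90% and 11.7% for the genes called, and the ranges of females and males overlapped for all 9. In bulk tissue, fewer cells of a type and less RNA per cell cannot be told apart, and the same holds for fewer mitochondria and less RNA per mitochondrion.

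Among the complex I genes, mt-Nd1 ranged in females from 4924 to 17591 CPM (median 8047) and in males from 5117 to 16170 CPM (median 9064). Males were 10.7% higher, a log2 difference of 0.15 (SE 0.0283, edgeR, adjusted p = 1.32e-06). mt-Nd2, next to it on the chromosome, lay between 3626 and 16282 CPM (median 6537) in females and between 2468 and 19531 CPM (median 7280) in males. It had the largest fitted difference of the 9, 0.16 on the log2 scale (SE 0.0391, edgeR, adjusted p = 0.000161), with the male range enclosing the female one. mt-Nd4 lay between 7209 and 27688 CPM (median 10977) in females and between 7468 and 36415 CPM (median 12157) in males, a log2 difference of 0.13 (SE 0.0326, edgeR, adjusted p = 0.000392). mt-Nd5, the longest of the 9 genes, had medians of 8056 CPM in females (5157 to 18798) and 8828 CPM in males (3798 to 23498), a log2 difference of 0.10 (SE 0.0310, edgeR, adjusted p = 0.00461). For all 4 genes the female and male ranges overlapped.

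mt-Co1 of complex IV had the lowest adjusted p of the 9. It lay between 20967 and 58328 CPM (median 33464) in females and between 24366 and 68325 CPM (median 37237) in males, 0.14 higher on the log2 scale (SE 0.0233, edgeR, adjusted p = 1.69e-08), and 7.07% of its variance on the transformed scale went with sex. mt-Co3, a structural subunit of the same complex, had medians of 3933 CPM in females (1717 to 7927) and 4175 CPM in males (2125 to 8706), a log2 difference of 0.12 (SE 0.0366, edgeR, adjusted p = 0.00274). mt-Co2, the subunit that accepts electrons from cytochrome c, had medians of 1393 CPM in females (3.31 to 2230) and 1412 CPM in males (3.15 to 2647). Its fitted log2 difference was 0.0017 (SE 0.161, edgeR, adjusted p = 0.994), with a 95% interval of -0.31 to 0.32, too wide to show a difference of the size seen for the other members.

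mt-Cytb of complex III lay between 9215 and 25029 CPM (median 14318) in females and between 9173 and 31363 CPM (median 15028) in males. The difference, 0.07 on the log2 scale (SE 0.0231, edgeR, adjusted p = 0.00674), was the smallest among those called, and it missed the threshold when libraries were scaled to their total count without TMM (adjusted p = 0.117). mt-Atp6 of the ATP synthase had medians of 1833 CPM in females (1105 to 6110) and 1998 CPM in males (1336 to 6680), and its log2 difference of 0.09 (SE 0.0476, edgeR, adjusted p = 0.111) did not pass, with a 95% interval of -0.01 to 0.18.

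**Figure D2:**
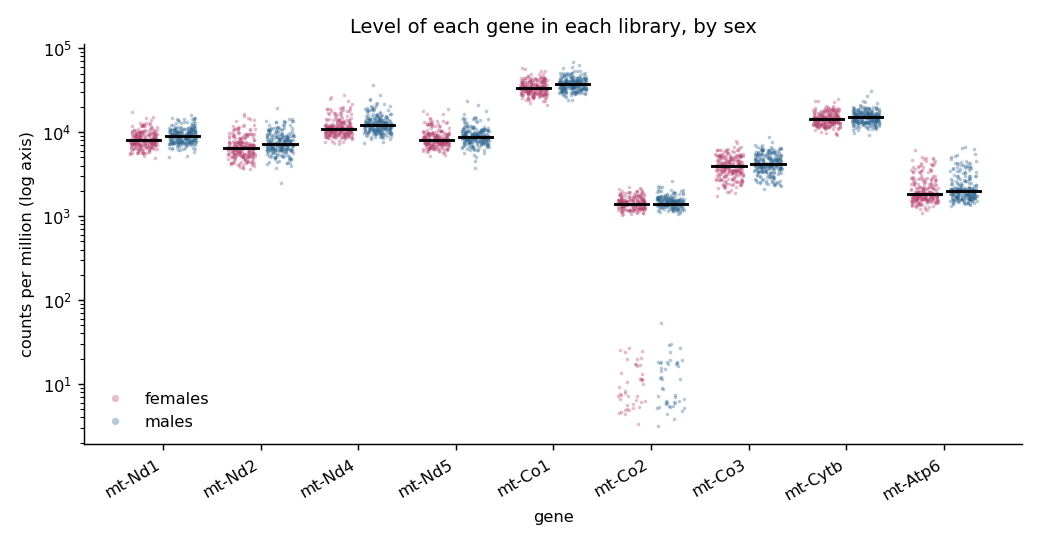
Level of each of the 9 genes (CPM, log axis) in the female and the male libraries, each point a library and each bar a median. The female and male points overlap for every gene, and mt-Co2 alone divides into an upper and a lower set, with nothing between 53.0 and 1029 CPM.

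With counts summed with the nuclear copy, all 9 genes were called higher in males by edgeR (24.0% of genes were, in that fit), mt-Co2 with its copy by 0.10 on the log2 scale (SE 0.0327, adjusted p = 0.00521) and mt-Atp6 with its copy by 0.11 (SE 0.0388, adjusted p = 0.0128). These sums lay between 5672 and 20250 CPM in females and between 5673 and 20633 CPM in males for mt-Co2, ranges that overlapped as those of mt-Co2 itself did. Of the copies alone, those of mt-Co2, mt-Atp6 and mt-Co3 were also higher in males by edgeR, Gm28661 by 0.12 on the log2 scale (adjusted p = 0.00339), Gm10925 by 0.11 (adjusted p = 0.0158) and Gm28437 by 0.11 (adjusted p = 0.00272), while Gm29216, which copies part of mt-Co1 (0.25, SE 0.269), and Gm28439, which copies part of mt-Nd4 (0.21, SE 0.443), were not called (adjusted p = 0.459 and 0.718). The copies of 2 genes outside the list were Gm10222 of mt-Nd4l, higher by 0.14 (adjusted p = 0.00283), and Gm28438 of mt-Nd3, not called (0.05, adjusted p = 0.442). Of the 6 mitochondrial genes outside the list, mt-Nd6, the complex I gene on the other strand, was higher in males by 0.09 (edgeR, adjusted p = 0.0191), while the differences of mt-Atp8 (0.12), mt-Nd4l (0.11), mt-Nd3 (0.04), mt-Rnr2 (0.04) and mt-Rnr1 (0.03) had adjusted p values of 0.127, 0.504, 0.272, 0.364 and 0.485.

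Libraries were also scaled to the summed count of the 9 genes, which sets the members' summed difference near 0 by construction and so tests only whether they differed unequally. The median log2 difference of all genes then moved from -0.0140 to -0.138, a shift of 0.124, and 7.19% of genes were called higher and 61.3% lower in males. On that scale 4 members were called by edgeR, mt-Nd1 (0.03, adjusted p = 0.0262) and mt-Co1 (0.02, adjusted p = 0.0144) higher in males and mt-Cytb (-0.05, adjusted p = 1.1e-07) and mt-Nd5 (-0.03, adjusted p = 0.0402) lower, so the sex differences of these 4 genes were not of equal size. Markers of fibre and cell types moved with sex too, where 24.4% of all genes were called higher in males and 30.6% lower by edgeR. Endothelial markers were higher in 4 of 4 (median log2 difference 0.15, in the members' direction), erythroid markers in 3 of 5 with 0 lower, and fast-fibre markers in 5 of 10 with 3 lower. Slow-fibre markers were lower in 9 of 9 (median -0.45), brown adipocyte markers in 2 of 2, adipocyte markers in 6 of 7 with 1 higher, and macrophage and Schwann markers in 1 of 7 and 1 of 4. Their part in the members' difference was not tested. With a slow-fibre score as covariate, 7 of the 9 members were called higher in males by edgeR, as were 4292 of all 18823 genes.

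Within single generations and blocks, which hold fewer animals, the number of members called higher in males varied (edgeR). It was 2 of 9 in generation 17 (12.2% of all genes were called higher there), 0 in 18 (11.4%), 0 in 19 (11.6%), 4 in 21 (13.6%) and 2 in 23 (13.2%). In blocks 1 to 5 it was 0 (9.1% of all genes), 0 (10.8%), 3 (12.0%), 5 (12.8%) and 0 (10.7%). At an unadjusted p under 0.05 the counts of 0 remained 0 in generations 18 and 19 and in blocks 1 and 5, and block 2 had 2.

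No member was called different between the 5 generations by edgeR (0 of 9, against 7.52% of all genes), and on the scale of the members' own sum 1 was (7.43% of all genes). With a score of each library's GC content (high-GC minus low-GC genes) as a covariate 3 were, mt-Nd5, mt-Cytb and mt-Nd4 (9.57% of all genes). Without the score, at an unadjusted p under 0.05, there was 1 member by edgeR, mt-Cytb (p = 0.0198, adjusted p = 0.147), and 2 by limma, where 19.7% of all genes had such a p by edgeR. The mean level of mt-Cytb was 15308 CPM in generation 17, 15647 in 18, 14710 in 19, 14562 in 21 and 14724 in 23, each with an SD of 2470 to 2982, so the spread within a generation exceeded the range between them. mt-Nd5 had means between 9319 CPM in generation 17 and 8632 CPM in generation 23, with SDs of 2119 to 2542 (edgeR, adjusted p = 0.268). The fitted ranges between generations were 0.07 to 0.17 log2 units over the 9 genes. Of the other mitochondrial genes, mt-Nd3 was called (0.16 log2 units between its extremes, edgeR, adjusted p = 0.0423).

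The sex difference was not found to vary with generation for any member by edgeR (0 of 9 for the interaction, against 0.521% of all genes). No member had an unadjusted p under 0.05 by edgeR or by limma, where 5.93% of all genes had by edgeR, and the lowest was that of mt-Nd1 (p = 0.317).

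Library block, which has more levels than sex and so takes more variance by itself, went with more of it than sex or generation did for all 9 members. Of the 9 genes, 7 differed between blocks by edgeR, against 47.3% of all genes. With the GC score as a covariate 2 did, mt-Nd4 and mt-Co1 (27.7% of all genes). Block 1 was the highest for each of the 7 called without the score. The fitted ranges between blocks were 0.40 log2 units for mt-Nd2 (adjusted p = 1.55e-13), 0.38 for mt-Nd4 (8.03e-16) and for mt-Nd5 (2.17e-17), 0.32 for mt-Co1 (3.18e-18), 0.31 for mt-Nd1 (8.4e-15), 0.29 for mt-Co3 (2.18e-05) and 0.26 for mt-Cytb (1.83e-12, all by edgeR). mt-Co1, for example, averaged 41640 CPM ± 7454 (SD, n = 96) in block 1 and 33310 to 36027 CPM in the other 4. The ranges of mt-Co2 (0.22, adjusted p = 0.907) and mt-Atp6 (0.11, adjusted p = 0.562) did not pass, although with counts summed with the copy all 9 differed (edgeR, 47.2% of genes in that fit). On the transformed scale, block went with 15.6% of the variance of mt-Co1, 13.8% of mt-Nd5 and 12.3% of mt-Nd1, against a median of 1.73% over all genes. For mt-Atp6 (1.29%) and mt-Co2 (0.759%) it went with less than that median.

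mt-Co2 was the one member with a wide gap in its values, which put its libraries into 2 separate sets. In 88 libraries it lay between 3.15 and 53.0 CPM (median 8.79), and in the others between 1029 and 2647 CPM (median 1465), with a gap of 4.27 log2 units and no library between. Among the 18823 genes tested, 0.468% had a gap of at least 1 log2 unit with 20 or more libraries on each side, and the median widest gap was 0.0236. The widest gaps of the other 8 members were between 0.0158 and 0.0625.

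The lower set was spread over every group. It held 42 of the females (17.9%) and 46 of the males, between 15 and 21 libraries of each generation, and 13, 18, 20, 20 and 17 libraries of blocks 1 to 5. The sum of mt-Co2 and Gm28661, which share all but 3 bases, did not divide in this way and ran over all libraries from 5672 to 20633 CPM with no gap wider than 0.0524 log2 units. Other members did not stand at the same levels in both sets, given here without a test because mt-Co2 itself defined them. mt-Atp6 ranged from 2106 to 6680 CPM (median 3722) in the lower set and from 1105 to 3765 CPM (median 1807) in the upper, and mt-Co3 from 3194 to 8706 CPM (median 5290) and from 1717 to 7927 CPM (median 3839). The ranges overlapped for both genes. Summed with their copies, medians in the lower and upper set were 11226 and 9355 CPM for mt-Atp6 and 12592 and 10434 CPM for mt-Co3. Genes without a shared window also had higher medians in the lower set, mt-Nd1 (9335 and 8322 CPM) and mt-Cytb (15632 and 14454 CPM). The medians of mt-Co1 lay close together, at 35452 and 35340 CPM. The library DO197, second in the members' share, had 19.1 CPM of mt-Co2.

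**Figure D3:**
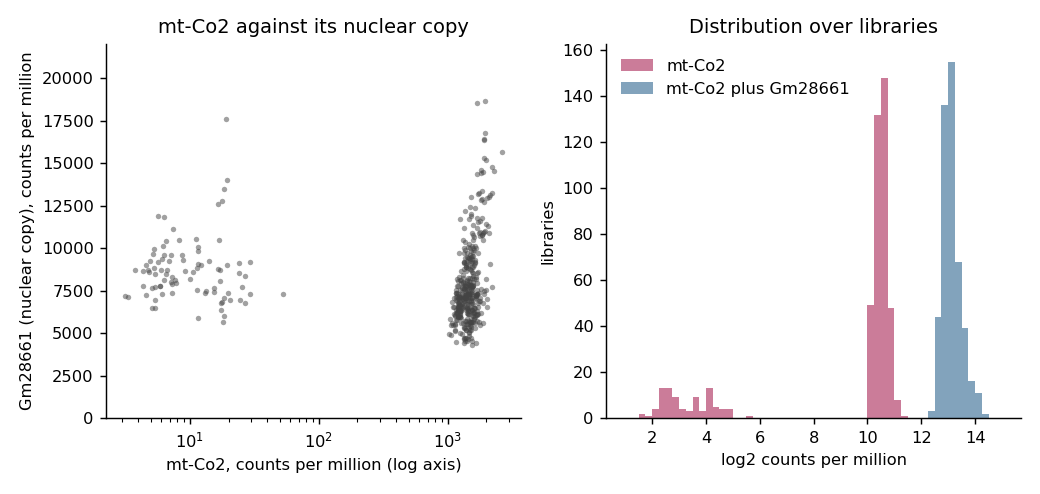
Left, mt-Co2 (CPM, log x axis) against its nuclear copy Gm28661 (CPM, linear y axis), each point a library, and right, the number of libraries (y axis) by log2 CPM (x axis) of mt-Co2 alone and of mt-Co2 plus Gm28661. The 88 libraries between 3.15 and 53.0 CPM of mt-Co2 stand apart from the others, between 1029 and 2647 CPM, while the sum forms 1 continuous set from 5672 to 20633 CPM.

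mt-Nd4l, a mitochondrial gene outside the list whose copy is Gm10222, divided in the same manner, with 101 libraries between 12.1 and 40.2 CPM and the others between 421.3 and 1566 CPM. The 2 divisions were not the same one. Of the 88 libraries low in mt-Co2, 26 were also low in mt-Nd4l and 62 were not, and 75 were low in mt-Nd4l alone. Gm28439, the copy of part of mt-Nd4, also divided, with 33 libraries above a gap of 1.47 log2 units. This division was uneven over the blocks. Below the gap lay 79.2% of the libraries of block 1, against 99.0%, 99.0%, 96.8% and 91.2% in blocks 2 to 5.

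Across libraries the other 8 members varied together. After sex and generation were taken out of the deposited transformed values, the 28 pairs of these 8 genes had Pearson correlations between 0.463 and 0.916 with a median of 0.763, and each had a permutation p of 1e-05, the smallest that 100000 permutations can give (36 pairs in the family, adjusted p = 1.2e-05). The highest was that of the complex I genes mt-Nd4 and mt-Nd5 (r = 0.916, rho = 0.891, over all libraries, r = 0.909 without the 2 farthest libraries). mt-Co1 and mt-Cytb, of complexes IV and III, were almost as close (r = 0.905, rho = 0.889, r = 0.901 without the 2 farthest), as were mt-Nd4 and mt-Co1 (r = 0.903, rho = 0.899, r = 0.899) and mt-Nd1 and mt-Nd2 (r = 0.894, rho = 0.889, r = 0.889). Pairs within a complex were thus not the only close ones. The lowest was that of mt-Co1 and mt-Atp6 (r = 0.463, rho = 0.533, r = 0.456 without the 2 farthest). That low value belonged to the pooled libraries, since within the upper and the lower mt-Co2 set the same pair had r = 0.786 and 0.710, and the lowest of the 28 pairs there were mt-Nd2 with mt-Co3 (0.588) and mt-Cytb with mt-Atp6 (0.609). The pooled r of mt-Atp6 was highest with mt-Co3, its neighbour on the chromosome (r = 0.766, rho = 0.801), but within the upper set it was highest with mt-Nd4 (0.856) and within the lower set with mt-Nd2 (0.909), against 0.767 and 0.715 with mt-Co3.

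The 6 pairs of mt-Nd1, mt-Nd2, mt-Nd5 and mt-Cytb, which share few or none of their windows with other sequence, had a median r of 0.832 (0.706 to 0.894). Since mt-Co2 falls into separate sets, its correlations are given within each. In the libraries of the upper set its 8 pairs had r between 0.451 and 0.695, highest with mt-Atp6, and in the 88 of the lower set between -0.398 and 0.00559. The 28 pairs without mt-Co2 had median r of 0.793 and 0.801 in these sets. Summed with its copy, on log2 CPM, mt-Co2 had r between 0.778 (mt-Cytb) and 0.918 (mt-Atp6 with its copy) with the others, and all 36 pairs a median of 0.872.

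Over all 36 pairs, mt-Co2 included, the median r was 0.661, and within the 5 blocks it was 0.663, 0.622, 0.566, 0.593 and 0.740. All members share a denominator in each library. When each gene was instead set against the other members' sum, as a log2 ratio, the median r was -0.0895, a scale on which a gene that rises lowers the ratios of the others.

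**Figure D4:**
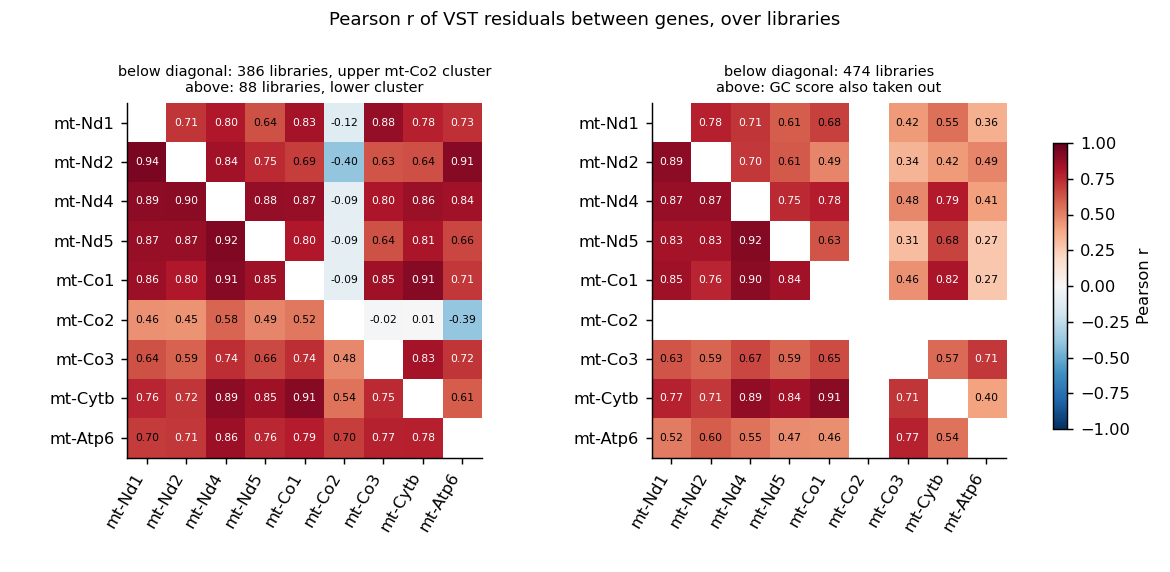
Pearson's r (colour and number) for each pair of genes, on the transformed values with sex and generation taken out. Left, within the upper mt-Co2 set below the diagonal and within the 88 libraries of the lower set above it, and right, over all libraries below the diagonal (0.463 to 0.916, mt-Co2 left blank) and with a score of each library's base composition also taken out above it.

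The nuclear Nduf genes, which encode the remaining subunits of complex I, had mostly negative correlations with the members, a direction that did not hold once a score of each library's GC content (high-GC minus low-GC genes) was taken out, when all 37 had a median r above 0 (0.0272 to 0.361). Without that step, 7 of the 37 had a median r with the 9 members above 0 and 30 below, from -0.545 to 0.472 with a median of -0.104, while among themselves their median r was 0.528. All-gene values were a median of -0.0201, with 44.7% of genes above 0. The highest were Ndufs1 (0.472), the largest subunit and a carrier of iron-sulfur clusters, Ndufab1 (0.220), the mitochondrial acyl carrier protein, and Ndufs4 (0.188), an accessory subunit. The lowest were the accessory subunits Ndufa2 (-0.545), Ndufa13 (-0.486) and Ndufb2 (-0.458). By member, the median r with the 37 genes was lowest for the mitochondrial complex I genes mt-Nd4 (-0.242), mt-Nd5 (-0.241) and mt-Nd2 (-0.238), followed by mt-Nd1 (-0.159) and mt-Co1 (-0.104), and nearer to 0 for mt-Atp6 (-0.0879), mt-Cytb (-0.0867), mt-Co3 (-0.0780) and mt-Co2 (-0.0271). Within blocks the median over all members and Nduf genes was -0.271, -0.000218, -0.00175, -0.00215 and -0.0767, against -0.110 pooled, so it was farthest from 0 in block 1.

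A regression of every gene on the level of mt-Nd1, with sex and generation as covariates, called 6 of the 37 Nduf genes positive and 23 negative by limma on the transformed values with Benjamini-Hochberg adjustment, where 25.7% of all 18822 other genes were positive and 33.4% negative. On mt-Cytb the counts were 7 and 18 (25.5% and 31.0% of all genes), on mt-Co1 6 and 19 (26.5% and 32.5%) and on mt-Atp6 6 and 16 (17.6% and 20.7%). With the GC score as a covariate these negative calls were lost, 33 Nduf genes being positive and 0 negative on mt-Nd1 (0 also at an unadjusted p under 0.05, limma). Without it, the nuclear genes of the other complexes were also called negative more often than positive in the regression on mt-Nd1. Of complex III, 2 of 9 were positive and 5 negative, of complex IV 0 of 13 were positive (0 also at an unadjusted p under 0.05) and 9 negative, and of complex V 2 of 15 were positive and 7 negative. The highest and lowest median r were those of Uqcrc2 (0.296), Uqcrb (0.203), Uqcrh (-0.0327), Uqcrq (-0.325), Uqcr10 (-0.368) and Uqcr11 (-0.452) for complex III, Cox6c (0.0888), Cox7a2 (-0.0182), Cox6b1 (-0.0452), Cox8b (-0.402), Cox8a (-0.436) and Cox6a1 (-0.455) for complex IV, and Atp5f1 (0.310), Atp5c1 (0.236), Atp5j (0.0611), Atp5g1 (-0.315), Atp5d (-0.403) and Atp5e (-0.440) for the ATP synthase.

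Genes that serve the mitochondrial genome lay on both sides of 0. Of 34 genes of mitochondrial transcription, RNA processing and DNA maintenance, 23 had a median r with the members above 0 and 11 below, and the regression on mt-Nd1 called 17 positive and 9 negative by limma (25.7% and 33.4% of all genes). With the GC score as a covariate most of these negative calls were lost, with 18 positive and 1 negative (9.67% and 14.4% of all genes). The order that follows is that without the score. The highest were Grsf1 (0.589), an RNA-binding protein of the mitochondrial RNA granules, Pnpt1 (0.570), a ribonuclease that degrades mitochondrial RNA, and Mtpap (0.543), the poly(A) polymerase of mitochondria. The lowest were Polrmt (-0.494), the mitochondrial RNA polymerase itself, Fastk (-0.455), an RNA-binding protein, and Polg (-0.415), the DNA polymerase that copies the genome.

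Among the 8 complex I assembly factors, 4 were above 0 and 4 below, from Ndufaf4 (0.584), Ndufaf1 (0.468) and Ndufaf7 (0.157) to Ndufaf6 (-0.194), Ndufaf3 (-0.284) and Ndufaf8 (-0.437). With the GC score taken out, all 8 were above 0. Among 5 regulators of mitochondrial genes, Gabpa (0.438), a subunit of the nuclear respiratory factor GABP, and Ppargc1a (0.195), the coactivator PGC-1 alpha, were above 0, and Esrra (-0.127), Ppargc1b (-0.145) and Nrf1 (-0.263) below.

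The genes most like the members over all 18801 genes off the mitochondrial chromosome and outside the copy, by median r over all libraries, were Dld (0.758), a shared subunit of the pyruvate dehydrogenase complex, Synj2bp (0.736), a protein of the mitochondrial outer membrane, Slc25a46 (0.728), another outer membrane protein, Ppp1cb (0.727) and Ppp6c (0.714), both phosphatase subunits, Ube3a (0.710), a ubiquitin ligase, Arhgap5 (0.709) and Cops2 (0.708). The lowest were Rps21 (-0.608), Scaf1 (-0.605), Cic (-0.602), Gnb2 (-0.601), Sbf1 (-0.600), Rpl18 (-0.599), Sin3b (-0.595) and Pcnx3 (-0.595), among them 2 ribosomal proteins. These values were measured on the same libraries that name them and have no test.

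The 2 ends of that order differed in base composition. The longest annotated transcripts of the 8 most alike had a GC content of 33.9% to 40.8%, and those of the 8 least alike 50.9% to 63.0%, while the members themselves have 35.6% to 39.9%. Over all 18801 genes the median r fell with GC content (Spearman's rho = -0.756 across genes, which are not independent replicates) and was weakly related to transcript length (rho = 0.212). In the fifth of genes with the lowest GC content the median r was 0.191 and 89.6% were above 0, and in the fifth with the highest it was -0.197 and 4.28% were above 0. Among the 37 Nduf genes, rho with GC content was -0.487.

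A score of each library, the mean standardised level of the fifth of genes with the highest GC content minus that of the fifth with the lowest, followed the members too (the members, the copy and the listed genes left out, the score chosen after seeing the data). The share of counts of the 9 genes had r = -0.789 with it (rho = -0.716, over all libraries), and r = -0.806, -0.764, -0.657, -0.731 and -0.804 within blocks 1 to 5. By gene r was -0.841 for mt-Nd4, -0.806 for mt-Nd5, -0.730 for mt-Co1, -0.724 for mt-Nd2, -0.722 for mt-Nd1, -0.678 for mt-Cytb, -0.534 for mt-Co3 and -0.406 for mt-Atp6. For mt-Co2, over both of its sets, it was -0.0496. The score averaged -0.562 in block 1, where the members were highest, and between 0.0173 and 0.286 in the other 4, and it averaged -0.0022 in females and 0.0022 in males. It is built from the expression of nuclear genes, so anything that moves those genes moves it, and what lies behind it was not tested.

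With the score taken out as well, the 30 Nduf genes that had been below 0 moved above it, and the 7 others stayed above. All 37 then had a median r with the members above 0, from 0.0272 to 0.361 with a median of 0.212, while the median of all other genes was -0.00936 and 44.6% were above 0. Ndufs1 had 0.361, and the 3 lowest before were at 0.161 (Ndufa2), 0.195 (Ndufa13) and 0.146 (Ndufb2). With the score as a covariate, the regression on mt-Nd1 called 33 of 37 Nduf genes positive and 0 negative by limma, where 9.67% of all genes were positive and 14.4% negative, that on mt-Cytb 35 and 0 (7.68% and 9.38% of all genes), that on mt-Co1 35 and 0 (9.43% and 12.4%) and that on mt-Atp6 14 and 0 (1.5% and 0.855%). At an unadjusted p under 0.05, 0 Nduf genes were negative in each of these 4 regressions. The other complexes moved likewise on mt-Nd1, with 9 of 9 genes of complex III, 9 of 13 of complex IV and 14 of 15 of complex V positive, and 0, 1 and 0 negative (0, 2 and 0 at an unadjusted p under 0.05), while on mt-Atp6 6, 3 and 9 were positive and 0 negative, also at an unadjusted p under 0.05. Of the 34 genes of mitochondrial transcription, RNA processing and DNA maintenance, 18 were then positive and 1 negative on mt-Nd1 and also on mt-Co1, and 17 positive and 0 negative on mt-Cytb (2 negative at an unadjusted p under 0.05). On mt-Atp6, where few genes of any kind were called, 2 of the 34 were positive and 0 negative (1 negative at an unadjusted p under 0.05), against 14 and 7 without the score. The median over the 36 pairs of members fell to 0.467 and stayed above 0.

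**Figure D5:**
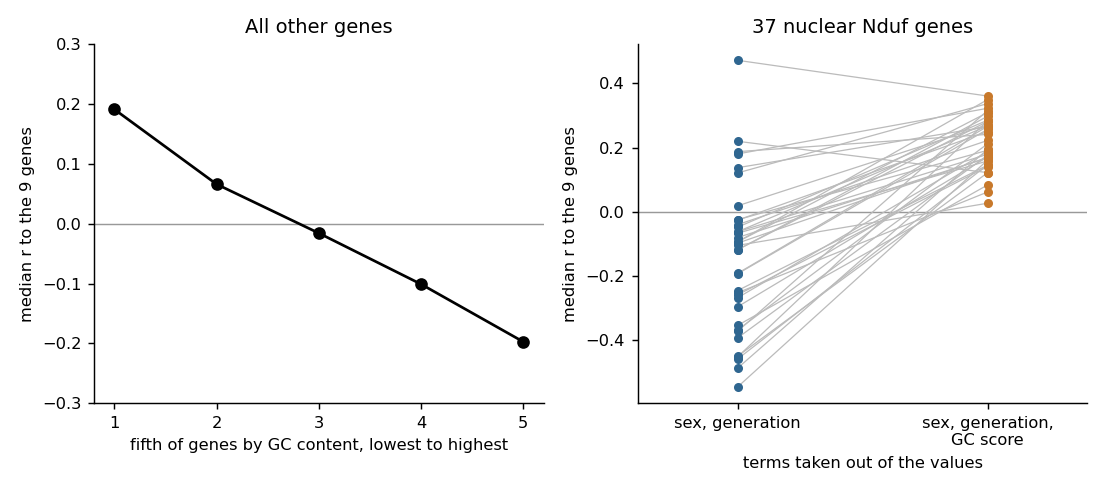
Left, median over genes of the r to the 9 members (y axis) for all other genes in 5 equal classes of GC content (x axis), falling from 0.191 to -0.197. Right, median r of each of the 37 Nduf genes with the 9 members (y axis) with sex and generation taken out and with the GC score taken out as well (x axis, lines join a gene), where 7 genes are above 0 before and all 37 after.

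The fit by group changed with the score as covariate too. The sex difference was called for 7 of 9 members (25.4% of all genes were called higher in males), while the difference between blocks was left in 2 of 9, mt-Nd4 (adjusted p = 0.000638) and mt-Co1 (adjusted p = 0.00768, both edgeR), where 27.7% of all genes were called. The difference between generations was called for 3 of 9 by edgeR, mt-Nd5 (adjusted p = 3.94e-06), mt-Cytb (adjusted p = 0.000914) and mt-Nd4 (adjusted p = 0.0196), where 9.57% of all genes were.

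Of 7 marker scores for fibre and cell types, the score over 10 fast-fibre genes had the strongest relation to the members' share (r = -0.474, rho = -0.481, a description over the same libraries). Scores for macrophages (r = -0.183), adipocytes (-0.129), slow fibres (-0.0726), Schwann cells (-0.0435), erythroid cells (-0.0262) and endothelium (0.0806) were closer to 0. Of the 10 fast-fibre genes, 3 had a median r with the members above 0, Myh1 (0.123), Myh2 (0.0735) and Tnnt3 (0.0118), and 7 below. The median over the 10 moved from -0.218 to -0.0366 with the GC score taken out. Fast-fibre genes also fill part of the total that the share is taken from, Myh4 alone with 69383 CPM. The regression on mt-Nd1 called 7 of 10 fast-fibre genes, 6 of 7 macrophage genes and 6 of 7 adipocyte genes negative by limma, against 33.4% of all genes, and 1 fast-fibre gene positive. With the GC score as a covariate, the negative calls depended on the member (limma). Macrophage genes were negative in 7 of 7 on mt-Nd1 but in 1 on mt-Cytb, 0 on mt-Co1 and 0 on mt-Atp6 (2 and 3 of the last pair at an unadjusted p under 0.05). Adipocyte genes were negative in 6 of 7 on mt-Nd1, 5 on mt-Cytb, 6 on mt-Co1 and 0 on mt-Atp6 (1 at an unadjusted p under 0.05). Of the 10 fast-fibre genes, 2 were positive and 0 negative on mt-Nd1 (2 negative at an unadjusted p under 0.05), 2 and 3 on mt-Cytb, 2 and 4 on mt-Co1, and 0 and 0 on mt-Atp6 (0 and 1 at an unadjusted p under 0.05). The shares of all genes called negative on these 4 members were 14.4%, 9.38%, 12.4% and 0.855%.

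Endothelial genes were 1 of 4 negative on mt-Nd1 without the score, and with it 3 of 4 were positive on mt-Nd1, mt-Cytb and mt-Co1 and 0 on mt-Atp6 (2 at an unadjusted p under 0.05, limma). Brown adipocyte genes were 2 of 2 negative on mt-Nd1 in both fits, and with the score 1 on mt-Cytb, 2 on mt-Co1 and 0 on mt-Atp6 (0 at an unadjusted p under 0.05). On mt-Nd1 without the score, 1 of 9 slow-fibre genes was negative, 1 of 4 Schwann genes was negative and 1 positive, and 0 of 5 erythroid genes were called (1 negative at an unadjusted p under 0.05). With it, 1 slow-fibre gene was positive on mt-Co1 and 1 Schwann gene negative on mt-Cytb, and these 3 lists held no other call on the 4 members. At an unadjusted p under 0.05, erythroid genes were positive in 0 on mt-Nd1, 1 on mt-Cytb, 4 on mt-Co1 and 2 on mt-Atp6, where 1 was negative, and 1 slow-fibre gene was positive on mt-Cytb and 1 Schwann gene negative on mt-Co1 and on mt-Atp6. The part of these cell types in the members' levels was not tested.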

How the data were processed

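Libraries were made from poly(A)-selected RNA with the KAPA mRNA HyperPrep kit and sequenced as 100-base read pairs. The authors estimated expected counts per gene with EMASE within the GBRS software, aligning both reads of a pair as single reads to a transcriptome of the founder strains (GRCm38), and the deposited expected counts (68.6% of them whole to the sixth decimal) were rounded here. They also deposited VST scores, values of the variance-stabilizing transformation of DESeq2, which lie close to a log2 scale. The aligner version is not given in the sources used here, and counts cover both ends of a fragment.

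Group differences were tested on the counts with edgeR 4.0.16 (TMM, trended dispersion, quasi-likelihood, R 4.3.3) on sex and generation, over the 18823 genes that passed edgeR's filter (minimum count 10), among them all 9 members, with Benjamini-Hochberg adjustment and a threshold of 0.05. Models with an added block term or a sex-by-generation term were fitted likewise, with limma 3.58.1 on the VST values and DESeq2 1.42.0 as alternatives. Regressions of each gene on a member used limma on the VST values, and correlations used VST values with sex and generation taken out, with 100000 two-sided permutations. Windows, overlaps and GC content came from GRCm38 and its GENCODE annotation (release M21). The edgeR fit of the sex difference, the limma regression and the correlation were tried on simulated data, and the other fits were not. Each library is 1 animal. Intervals give the uncertainty of a fitted difference between groups, judged from the variation between animals, while SDs and ranges give the spread of the animals.

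The members and lists were chosen with earlier results of these data known. Named genes are the members, the other genes of the mitochondrial chromosome, their nuclear copy, the 3 highest and 3 lowest of each list of nuclear mitochondrial genes by median r, and the 8 highest and 8 lowest of all others, and the 3 libraries at each end of the share. Sums with the copy, the mt-Co2 sets and the GC score were chosen after seeing the data. With totals of 35902446 to 165723762 counts, depth did not limit the members.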

Additional observations from a re-analysis of the deposited data

How the results depend on the processing

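Of the counts of members called for sex, 7 in the pooled model, those on other scales and subsets of the animals varied most. Scaled to the members' own sum the count was 4, within generations 17, 18, 19, 21 and 23 it was 2, 0, 0, 4 and 2, all higher in males (12.2%, 11.4%, 11.6%, 13.6% and 13.2% of all genes were), and within blocks 1, 2, 3 and 5 it was 0, 0, 3 and 0 (9.1%, 10.8%, 12.0% and 10.7%, edgeR). At an unadjusted p under 0.05 there were 0 in generation 18, 0 in generation 19, and 0, 2 and 0 in blocks 1, 2 and 5. These subsets hold 91 to 99 animals each. For generation, 0 in the pooled model, the count was 1 on the members' own scale (7.43% of all genes) and 3 with the GC score, and for block, 7, it was 2 with the GC score. The median pair correlation was -0.0895 on log2 ratios, and the median with the Nduf genes was 0.192 with the GC score taken out, the causes of which were not tested. Log2 sex differences that turned below 0 were those of mt-Nd4 in block 5 (-0.0161), mt-Nd5 on the members' scale (-0.0275) and in block 5 (-0.0231), mt-Cytb (-0.0538) and mt-Atp6 (-0.0301) on the members' scale, and mt-Co2 with DESeq2 (-0.0013), limma (-0.0472), the slow-fibre covariate (-0.0345), the members' scale (-0.13), the total count (-0.0337), the total off the mitochondrial chromosome (-0.0231), generations 17 (-0.0525) and 18 (-0.20) and block 5 (-0.41). The Nduf median, -0.110, stayed below 0 elsewhere but moved by over 1.5 times to -0.0683 with Spearman's rho, -0.222 with counts summed with the copy, and -0.271, -0.000218, -0.00175 and -0.00215 within blocks 1 to 4, near 0 in blocks 2 to 4. All other recomputed pair medians stayed above 0, and the other counts stayed within 1.5 times. No paired analysis was possible because each animal had its own number and the groups shared no replicate numbers.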
